A study of Mus with 6 samples.

Results

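The corticosteroid receptors and the corticotropin-releasing hormone (CRH) system were followed as 9 genes in the hippocampus of FSS mice and control mice. The genes were chosen by symbol as Nr3c1, Nr3c2, Fkbp5, Fkbp4, Hsd11b1, Crh, Crhr1, Crhr2 and Crhbp. Each was read from the row of the deposited table that carried its symbol alone, and each symbol had 1 such row, so all 9 were measured among the 19938 genes (21789 rows) with exactly 1 symbol. FSS mice were C57BL/6JJmsSlc males made to swim for 11 min daily on 5 days in water of 25 °C and 25 cm depth (3 mice), and control mice were of the same strain with no swim stress (3 mice). Mice of both groups were 10 to 11 weeks old by their labels. The methods place a tail suspension test between the last swim and the collection of the tissue a few days later, so the levels are not those of the hours after swimming. Each array held the RNA of 1 mouse, and the values are log2 levels made by robust multi-array averaging (RMA), so a difference of 1 is a doubling.

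Corticosterone, the main glucocorticoid of the mouse, acts in the brain through the mineralocorticoid receptor, which binds it tightly, and the glucocorticoid receptor, which is filled mainly when the hormone is high. The hippocampus is known for carrying both and for its part in the feedback that restrains the stress axis. CRH is the peptide that drives this axis from the hypothalamus, and in the hippocampus it is made mainly by interneurons. No gene sequence came with the table or its annotation, and the table names no genome build, so neither sequences nor coordinates are given.

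The arrays were alike in level, with medians of 7.33, 7.35 and 7.32 in FSS mice against 7.34, 7.35 and 7.32 in control mice. The SD of all values set FSS mice 1 and 3 and control mouse 3 (2.26 to 2.27) apart from FSS mouse 2 and control mice 1 and 2 (2.22 to 2.23). Marker genes were read beside the tissue label, which they cannot settle. All 12 markers of hippocampal excitatory neurons were measured, with mean levels between percentiles 47.2 and 99.9 of all rows, the 6 neocortical markers lay between percentiles 43.5 and 84.8, and the 7 measured hypothalamic markers between percentiles 8.55 and 58.1, so that these ranges overlapped. A percentile only places a row on the array, since probes differ in brightness, and levels of different genes were not compared.

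Of the 9 genes, 1 was higher in FSS mice at an unadjusted p under 0.05 from limma and 0 were lower, so that 11.1% of the members passed, while 5.14% of all rows did. By direction, 2.49% of all rows were higher and 2.66% were lower. The gene that passed was Hsd11b1, the enzyme that regenerates corticosterone inside cells. The median log2 fold change (FSS minus control) was 0.012 over the members and 0.0049 over all rows, with 5 members above 0 and 4 below. No member passed an adjusted p of 0.05 (0 of 21789 rows did, against 1121 rows at an unadjusted p under 0.05), and none reached the size of 0.5 with an unadjusted p under 0.05 that the methods used to select genes, which 0.0688% of all rows did. The p values set against that threshold here are from limma, which the methods do not name. The 95% interval of every member lay within 0.5 on either side of 0, the farthest bound being that of Fkbp5 at -0.42.

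**Figure D1:**
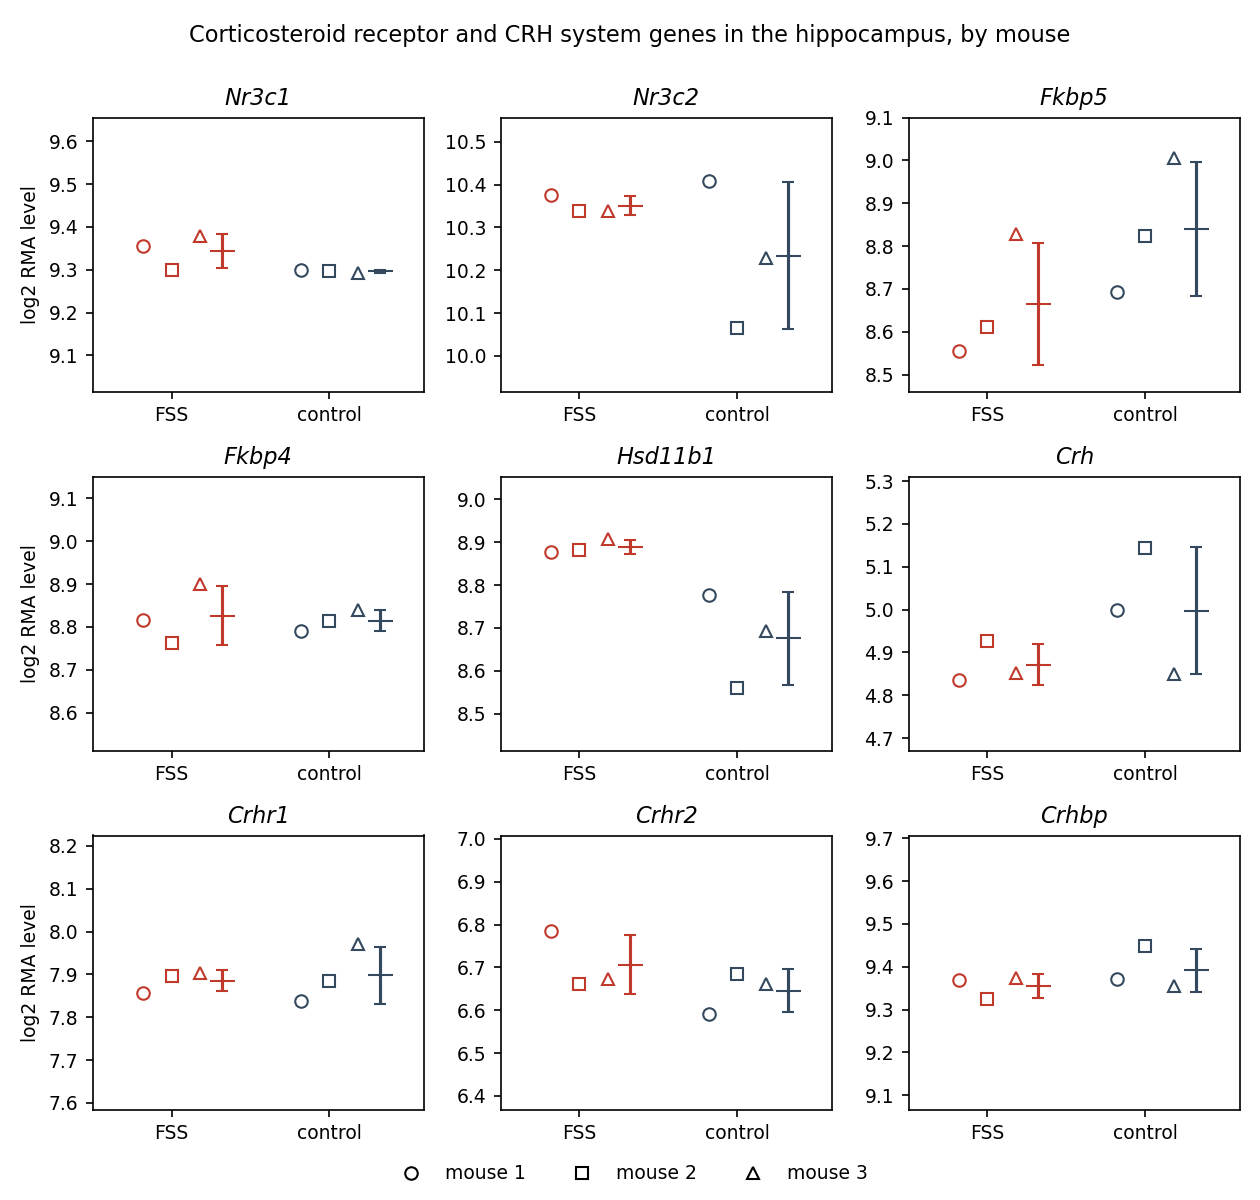
Log2 RMA level (y axis, the same span of 0.64 in every panel) of each of the 9 genes in FSS and control mice (x axis). Symbols are single mice and bars are the mean ± SD of 3 mice. For Hsd11b1 alone the 3 FSS mice lie above all 3 control mice.

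Hsd11b1 encodes 11β-hydroxysteroid dehydrogenase type 1, which turns inert 11-dehydrocorticosterone back into corticosterone and so raises the hormone available to receptors in the same cell. Its log2 levels were 8.88, 8.88 and 8.91 in FSS mice, against 8.78, 8.56 and 8.69 in control mice. Every FSS mouse was above every control mouse, and the FSS mice lay close together. The FSS mice averaged 8.89 ± 0.016 and the control mice 8.68 ± 0.11 (SD, n = 3 each). This is a log2 fold change of 0.21 (standard error 0.062, 95% interval 0.066 to 0.36), which is 1.16-fold, with an interval of 1.05-fold to 1.28-fold. Limma gave an unadjusted p = 0.0111 and an adjusted p = 0.943. The exact two-sided permutation test gave p = 0.1, the smallest that 3 mice against 3 can give. Groups that do not overlap were found in 10.3% of all rows. The size of the difference lay at percentile 96.6 of all rows, and its standard error at percentile 49.6.

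The direction of Hsd11b1 and its side of the unadjusted threshold were the same in all 17 alternatives, with log2 fold changes from 0.15 (without control mouse 2) to 0.26 (without control mouse 1), while its adjusted p stayed between 0.584 and 1.00. Some alternatives, such as those that change only the variance or the rows tested, cannot alter a log2 fold change. For groups that do not overlap, leaving out a mouse, weighting arrays or comparing within sets of arrays cannot turn the direction either. Direction could turn only under another normalization. Within the arrays of narrower spread, which held FSS mouse 2 and control mice 1 and 2, the difference was 0.21. Within the arrays of wider spread, which held FSS mice 1 and 3 and control mouse 3, it was 0.20. The sets were split after the values were seen and each has a group of 1 mouse, so these differences were not tested, and the part of array spread in the result was not tested either. In bulk tissue, more cells of a type and more RNA per cell cannot be told apart. Some cell type markers, like Hsd11b1, were higher in FSS mice. On the log2 scale, the 12 excitatory neuron markers summed to 14.73 to 14.74 in FSS mice and 14.67 to 14.72 in control mice. Of these markers, 1 was higher (Prox1, log2 fold change 0.15) and 0 were lower at an unadjusted p under 0.05. By sign 10 lay above 0, with Wfs1 at -0.11 and Pou3f1 at -0.041 below it. The brightest markers, Camk2a and Slc17a7, weigh most in this sum. The 7 measured microglial markers summed to 11.53 to 11.60 in FSS mice and 11.38 to 11.52 in control mice (2 higher, 0 lower). The 6 markers of meninges and fibroblasts summed to 11.80 to 11.84 in FSS mice and 11.68 to 11.70 in control mice, with 1 higher. The 6 choroid plexus markers summed to 10.39 to 10.66 in FSS mice and 9.83 to 10.31 in control mice, with 1 higher. That marker was Ttr, the carrier of thyroxine and retinol (log2 fold change 0.95), while the groups overlapped for each of the other 5, among which Folr1 was at -0.043 and Kcnj13 at -0.12. The summed level of the 8 astrocyte markers overlapped, with 14.35 to 14.40 in FSS mice and 14.36 in each control mouse, but 3 of them were higher and 1 was lower at an unadjusted p under 0.05. The higher ones were the water channel gene Aqp4 (0.33), the filament gene Gfap (0.16) and the gap junction gene Gja1 (0.11), and the lower one was the aldolase gene Aldoc (-0.10), as log2 fold changes. Over all rows, 2.49% were higher and 2.66% were lower at an unadjusted p under 0.05. The summed levels of interneuron, oligodendrocyte, endothelial, hypothalamic and neocortical markers overlapped between the groups. Below 0 lay 6 of the 7 measured hypothalamic and 5 of the 6 neocortical markers. At that threshold 1 neocortical marker was higher and 0 were lower. The part of these markers in the Hsd11b1 difference was not tested.

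**Figure D2:**
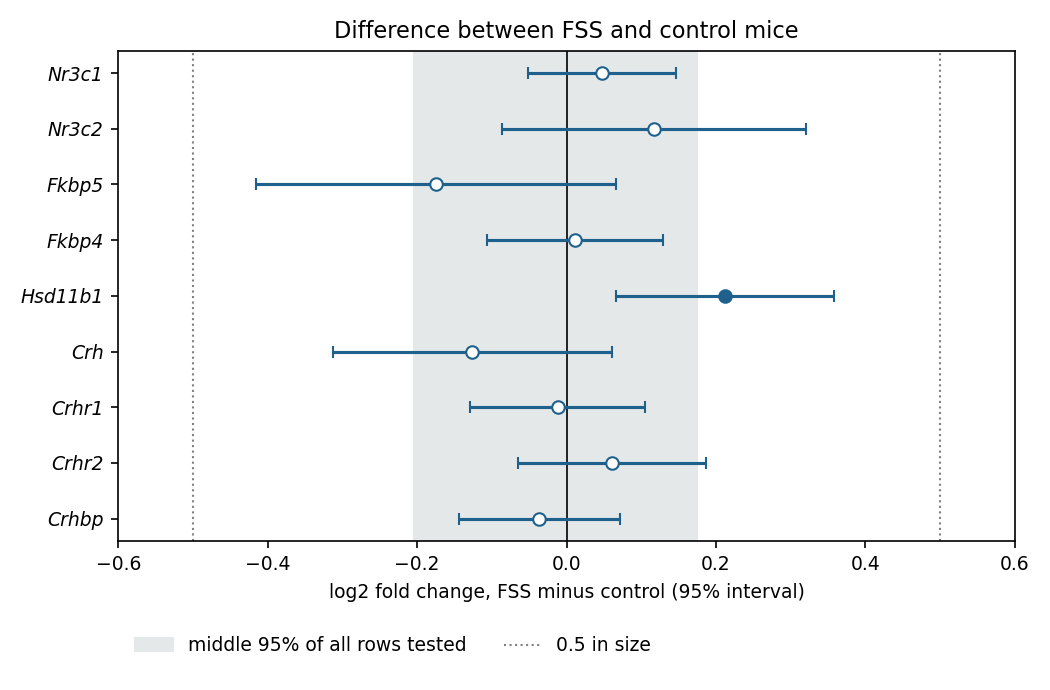
Log2 fold change of each gene (x axis, FSS minus control) with its 95% interval from limma, filled where the unadjusted p was under 0.05. The grey band holds the middle 95% of all rows, from -0.20 to 0.17, and the dotted lines stand at 0.5 in size. Only Hsd11b1, at 0.21, has an interval that leaves out 0.

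The enzymes around Hsd11b1 were looked up by role, after their values were seen. H6pd, which supplies the NADPH that Hsd11b1 needs to work in the reductive direction, had log2 levels of 7.86, 7.89 and 7.76 in FSS mice, against 7.81, 7.85 and 7.86 in control mice. The groups overlapped, with a log2 fold change of -0.00073 (95% interval -0.12 to 0.12, limma adjusted p = 1.00). Hsd11b2, the enzyme that works the other way and inactivates corticosterone, had a log2 fold change of 0.10 (95% interval -0.12 to 0.33, limma adjusted p = 0.971), at a mean level on percentile 28.2 of all rows.

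Nr3c2 encodes the mineralocorticoid receptor. Its log2 levels were 10.38, 10.34 and 10.34 in FSS mice, against 10.41, 10.06 and 10.23 in control mice. The highest and the lowest mouse were both controls. The log2 fold change was 0.12 (standard error 0.085, 95% interval -0.086 to 0.32, limma adjusted p = 0.952). Without control mouse 2 it was 0.033, and without control mouse 1 it was 0.20, where the unadjusted p from limma passed 0.05. Its size thus moved with the control mice that were left in.

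Nr3c1 encodes the glucocorticoid receptor, and its levels varied the least of the 9 genes over the 6 mice, with a range of 0.085. The log2 levels were 9.35, 9.30 and 9.38 in FSS mice, against 9.30, 9.30 and 9.29 in control mice. FSS mice 1 and 3 lay above all controls, and FSS mouse 2 lay among them, for a log2 fold change of 0.048 (standard error 0.042, 95% interval -0.052 to 0.15, limma adjusted p = 0.968), so that the interval ran from 0.965-fold to 1.11-fold. The balance of the receptors within a mouse was then taken as the level of Nr3c2 minus that of Nr3c1, which compares mice and says nothing of the amounts of either receptor. It was 1.02, 1.04 and 0.96 in FSS mice, against 1.11, 0.77 and 0.94 in control mice. The control mice lay on both sides of the FSS mice (difference 0.070, exact two-sided permutation p = 0.6).

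Fkbp5 and Fkbp4 encode FKBP51 and FKBP52, which compete for a place in the Hsp90 complex of the glucocorticoid receptor. FKBP51 lowers the receptor's affinity for hormone, and its gene is itself induced by the receptor, whereas FKBP52 favours passage of the receptor to the nucleus. Fkbp5 had log2 levels of 8.556, 8.612 and 8.827 in FSS mice, against 8.692, 8.823 and 9.005 in control mice. FSS mice 1 and 2 were below all controls, and FSS mouse 3 was level with control mouse 2. The difference on the log2 scale was -0.18 (standard error 0.10, 95% interval -0.42 to 0.066), which is 0.886-fold, and it did not pass (limma unadjusted p = 0.129, adjusted p = 0.943). It was the most negative of the 9 genes, and its standard error lay at percentile 85.1 of all rows. Without FSS mouse 3 the log2 fold change was -0.26 and passed an unadjusted p of 0.05, and without control mouse 3 it was -0.093. It was -0.15 inside the set of arrays of narrower spread and -0.31 inside the wider set.

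Fkbp4 had log2 levels of 8.82, 8.76 and 8.90 in FSS mice, against 8.79, 8.81 and 8.84 in control mice. The FSS mice enclosed the controls on both sides. Their log2 fold change was 0.012 (95% interval -0.11 to 0.13, limma adjusted p = 0.994), and its sign turned with quantile normalization (-0.0067), with a block for array spread (-0.010), without FSS mouse 3 (-0.025) and without control mouse 1 (-0.00044), so that no direction is given for this gene. The level of Fkbp5 minus that of Fkbp4 was -0.26, -0.15 and -0.072 in FSS mice, against -0.098, 0.0088 and 0.17 in control mice. The groups overlapped in this measure by FSS mouse 3 and control mouse 1 alone (difference -0.19, exact two-sided permutation p = 0.2).

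**Figure D3:**
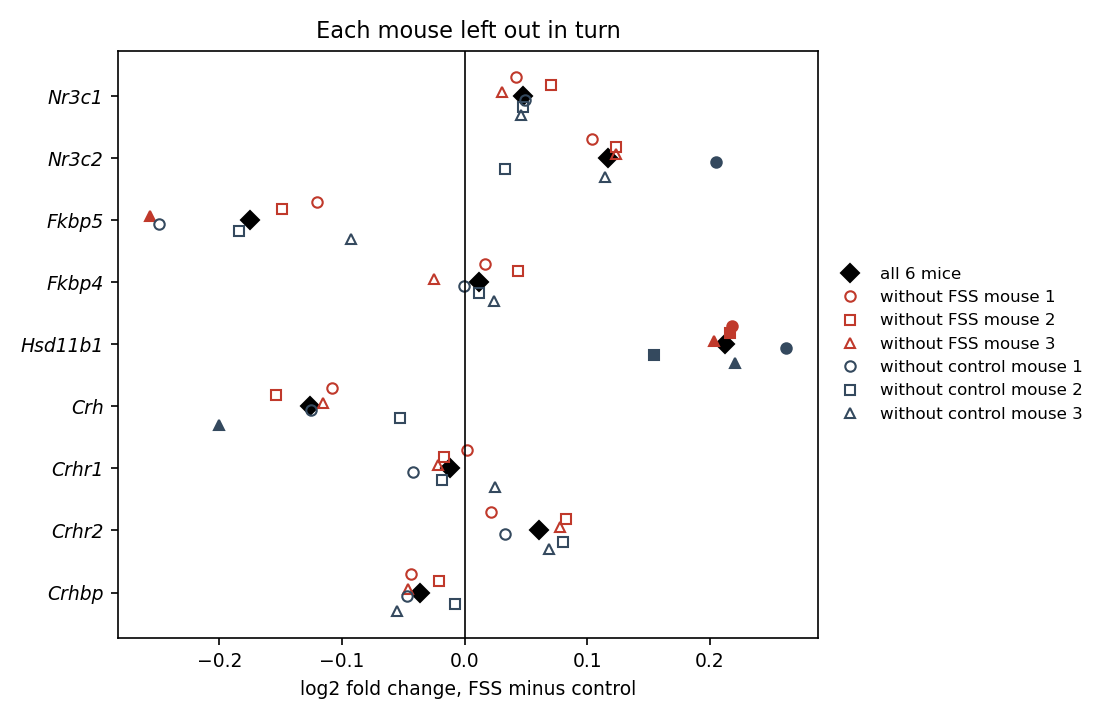
Log2 fold change of each gene (x axis, FSS minus control) with all 6 mice (diamonds) and with 1 mouse left out (red for FSS mice, dark for control mice), filled where the unadjusted p from limma was under 0.05. Hsd11b1 is filled in all 6 omissions, while Nr3c2, Fkbp5 and Crh are filled in 1 each.

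Since Fkbp5 is a textbook target of the glucocorticoid receptor, it was set against other genes that glucocorticoids induce. This relation was chosen after the values were seen. Of 18 measured genes of that list, 5 were lower in FSS mice at an unadjusted p under 0.05 and 0 were higher, with 17 below 0 and 1 above. Over all rows, 2.66% were lower and 2.49% were higher at that threshold, and 10245 of 21789 lay below 0. The median log2 fold change of the list was -0.10, and the 5 genes were Plin4 (-0.74), Gjb6 (-0.32), Dusp1 (-0.30), Sult1a1 (-0.29) and Fam107a (-0.26), each by limma with an adjusted p = 0.943. They encode a lipid droplet coat protein, a gap junction protein of astrocytes, a phosphatase of MAP kinases, a sulfotransferase and an actin-binding protein. Of these, Plin4, Gjb6 and Sult1a1 were already known to be lower in these arrays when the list was drawn up, so its count is not independent evidence of its direction. The number of lower genes was 2 without FSS mouse 1 or control mouse 2, 3 without control mouse 3 or with a block for array spread, and 1 with each gene's own variance. The mean log2 level of the 18 genes was 9.49, 9.58 and 9.66 in FSS mice, against 9.61, 9.79 and 9.80 in control mice.

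Over the 6 mice Fkbp5 followed this mean level. FSS mouse 1, which had the lowest Fkbp5, had the lowest level of 12 of the 18 genes. Control mouse 3, which had the highest Fkbp5, had the highest level of 12 of them. Pearson's r was 0.92 (exact permutation p = 0.00833) and Spearman's rho was 0.94 (exact permutation p = 0.0167). Over the 4 relations computed, which set Fkbp5, Nr3c1, Nr3c2 and Hsd11b1 against the same mean, the adjusted values for Fkbp5 were p = 0.0333 by exact permutation for r and p = 0.0667 by exact permutation for rho. The relation was chosen after the values were seen, and Plin4, Gjb6 and Sult1a1 were listed when known to be lower. These p values therefore only describe the 6 mice. Gjb6 and Sult1a1 were not left out in any setting. Control mice 2 and 3 lay farthest from the median of the mean level. Without them, and so with control mouse 1 as the only control, r was 0.94. It was r = 0.94 (exact permutation p = 0.00833) without Plin4, which has the widest range of the list. A correlation at least as high with this mean was found for 0.455% of the 21771 rows outside the list, and one of that size in either direction for 1.20% of them. The value pools FSS and control mice, and each group, like each set of arrays by spread, holds 3 mice, which is too few for a value of its own.

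The other 3 relations to this mean did not pass after adjustment. They also pool FSS and control mice. For Hsd11b1 the groups did not overlap, so its r takes in the group difference. For Nr3c2 r was -0.81 (exact permutation p = 0.0444, adjusted p = 0.0815; rho = -0.66, exact permutation p = 0.175). It was -0.24 without the same pair, control mice 2 and 3. That omission leaves control mouse 1 as the only control and narrows the range of the mean. Hsd11b1 had r = -0.79 (exact permutation p = 0.0611, adjusted p = 0.0815; rho = -0.54, exact permutation p = 0.297), and without that pair r was -0.043. Nr3c1 had r = -0.45 (exact permutation p = 0.308; rho = -0.60, exact permutation p = 0.242).

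**Figure D4:**
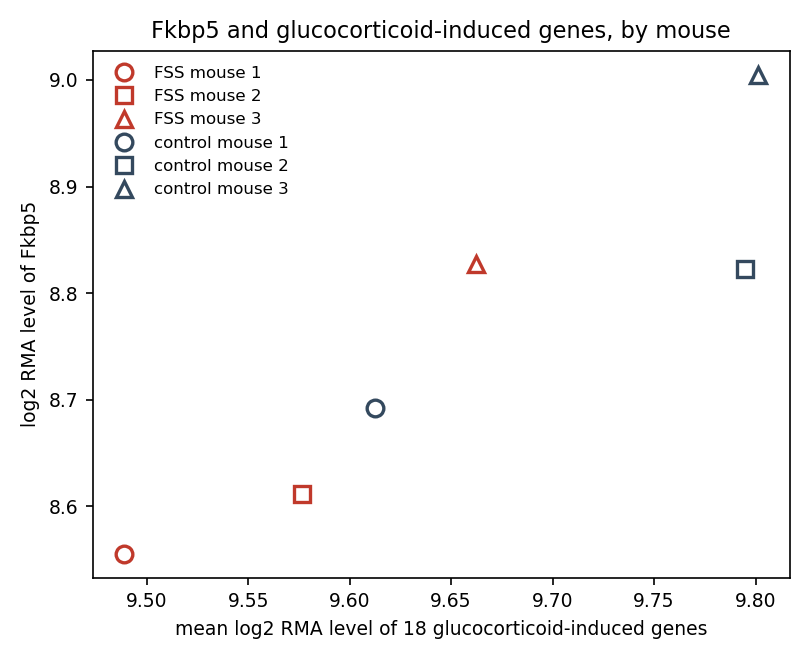
Log2 RMA level of Fkbp5 (y axis) against the mean log2 RMA level of 18 genes induced by glucocorticoids (x axis), with 1 symbol for each mouse, red for FSS mice and dark for control mice. The points run from FSS mouse 1 at the lower left to control mouse 3 at the upper right, with r = 0.92 over 6 mice.

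Crh, the gene of the CRH peptide, was dim on the array, with a mean level on percentile 10.1 of all rows. Its log2 levels were 4.84, 4.93 and 4.85 in FSS mice, against 5.00, 5.14 and 4.85 in control mice. Control mouse 3 lay among the FSS mice, and the other controls lay above them. The log2 fold change was -0.13 (standard error 0.078, 95% interval -0.31 to 0.061), and it did not pass (limma unadjusted p = 0.154, adjusted p = 0.945). Without control mouse 3 it was -0.20 and passed an unadjusted p of 0.05, and without control mouse 2 it was -0.052. Inside the narrower and the wider set of arrays the difference was -0.14 and -0.0055. The 12 interneuron markers, among them those of the cells that make CRH in the hippocampus, summed to log2 levels of 14.20 to 14.27 in FSS mice and 14.21 to 14.25 in control mice, with 0 higher and 0 lower at an unadjusted p under 0.05.

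Crhbp encodes the secreted protein that binds CRH and keeps it from its receptors. Its log2 levels were 9.37, 9.32 and 9.37 in FSS mice, against 9.37, 9.45 and 9.36 in control mice. All 6 mice lay within 0.13 of each other, and the log2 fold change was -0.037 (standard error 0.045, 95% interval -0.14 to 0.071, limma adjusted p = 0.973). The level of Crh minus that of Crhbp was -4.53, -4.40 and -4.52 in FSS mice, against -4.37, -4.30 and -4.51 in control mice (difference -0.089, exact two-sided permutation p = 0.2), and the groups overlapped.

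Crhr1 encodes the receptor through which CRH acts in the forebrain. Its log2 levels were 7.86, 7.90 and 7.90 in FSS mice, against 7.84, 7.88 and 7.97 in control mice, so that all FSS mice lay inside the range of the controls. The log2 fold change was -0.012 (standard error 0.049, 95% interval -0.13 to 0.11, limma adjusted p = 0.994), and its sign turned without FSS mouse 1 (0.0023) or control mouse 3 (0.024). Crhr2, whose product binds urocortins more tightly than CRH, had log2 levels of 6.79, 6.66 and 6.67 in FSS mice, against 6.59, 6.69 and 6.66 in control mice. FSS mouse 1 had the highest and control mouse 1 the lowest level, and the others lay together. In this gene the log2 fold change was 0.061 (standard error 0.053, 95% interval -0.065 to 0.19, limma adjusted p = 0.968). The level of Crhr1 minus that of Crhr2 was 1.07, 1.23 and 1.23 in FSS mice, against 1.25, 1.20 and 1.31 in control mice (difference -0.073, exact two-sided permutation p = 0.4). Over the 4 pairs of genes compared within mice, the lowest adjusted value was p = 0.4 by exact permutation.

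Among the mice, control mouse 2 stood at an end of the range most often. It had the lowest Nr3c2 and Hsd11b1 and the highest Crh and Crhbp, which made it extreme for 4 of the 9 genes, and each of the other mice was extreme for 2 or 3. The spread between mice was wider in controls for 6 members and wider in FSS mice for 3, whereas it was wider in controls for 50.4% of all rows. The median standard error was 0.053 over the members and 0.062 over all rows.

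The other genes of these pathways were counted from lists drawn up by function. No member passed among the 17 measured chaperones of steroid receptors, which hold the receptors ready for hormone (median log2 fold change 0.026). The smallest p values were those of Ppid, a cyclophilin that binds Hsp90 in the place of FKBP51 (log2 fold change 0.12, limma adjusted p = 0.943), and of St13, a partner of Hsp70 (log2 fold change 0.054, limma adjusted p = 0.958). Of 14 measured coregulators, which link the bound receptors to transcription, none passed (median -0.00029). Smarca4, a remodelling ATPase, had a log2 fold change of 0.079 and the coactivator gene Ncoa2 one of -0.051 (limma adjusted p = 0.944 and 0.968).

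Of 17 measured genes of steroid synthesis, metabolism and transport, 1 was higher in FSS mice and 0 were lower (median 0.0034). The shares over all rows were 2.49% and 2.66%. The higher gene was Akr1c14, a 3α-hydroxysteroid dehydrogenase of the route to neuroactive steroids. Its log2 levels were 5.72, 5.90 and 5.92 in FSS mice, against 5.59, 5.65 and 5.64 in control mice. The groups did not overlap, which held for 10.3% of all rows. FSS mice exceeded control mice by 0.22 on the log2 scale (standard error 0.063, adjusted p = 0.943 by limma), and the mean level lay on percentile 19.5 of all rows. Cyp11b1, the enzyme that completes corticosterone synthesis in the adrenal, had the next smallest p of that list and did not pass (log2 fold change -0.21, limma adjusted p = 0.943). Its mean level lay on percentile 20.1 of all rows.

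None of the 15 genes of urocortins and other stress axis peptides and receptors passed (median -0.0070). Those with the smallest p values were Mc2r, the receptor of adrenocorticotropic hormone, at -0.25, and Avpr1a, a vasopressin receptor, at 0.17 (log2 fold changes, limma adjusted p = 0.943 for both). Their mean levels lay on percentiles 9.48 and 25.7 of all rows. Of 17 measured genes that couple CRH receptors to cyclic AMP, calcium and arrestins, none passed (median 0.0091), the smallest p values being those of the adenylyl cyclase gene Adcy8 at -0.11 and of the G protein gene Gna11 at 0.060 (limma adjusted p = 0.945 and 0.949).

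**Figure D5:**
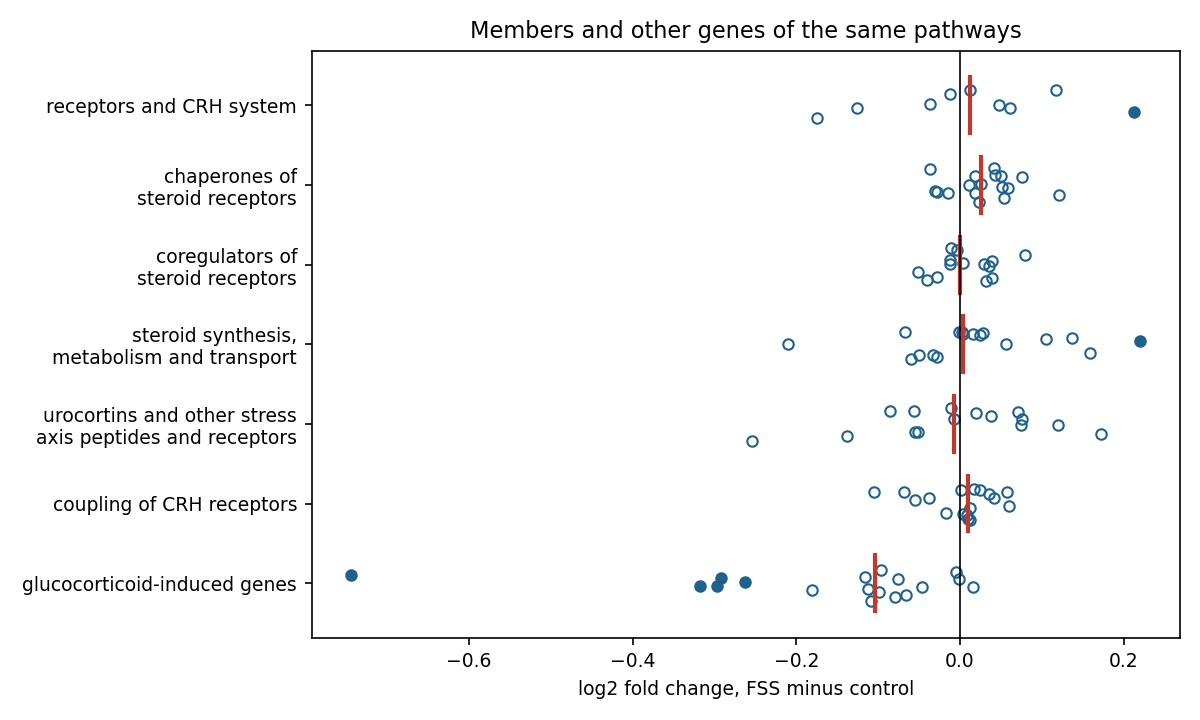
Log2 fold change (x axis, FSS minus control) of the 9 genes and of the measured genes of 6 pathway lists (y axis). Circles stand for genes and are filled at an unadjusted p under 0.05 from limma, and red lines are list medians, which range from -0.10 for glucocorticoid-induced genes to 0.026 for chaperones.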

How the data were processed

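Total RNA of the hippocampus of 3 FSS mice and 3 control mice was analysed on Affymetrix Mouse Gene 1.0 ST arrays, 1 mouse per array, in 1 colour. The paper states that its FSS experiment ran more mice on arrays, of which a random choice of 3 entered its volcano plot. The authors deposited RMA values on the log2 scale, and the Affymetrix Expression Console is named for this in the submitters' processing notes. The labels give 300 ng of labeled RNA, and the paper gives another amount and kit. Of the 28944 rows, 21789 carried 1 gene symbol in the platform annotation (21698 matched RefSeq gene IDs of GRCm38.p6), 1621 carried several and named no gene, and 5534 were unnamed. Where a symbol had several rows, the row with the highest mean was kept.

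The difference FSS minus control was estimated by limma 3.58.1 (R 4.3.3) across all 21789 rows without covariates, and p-values were adjusted over these rows by Benjamini-Hochberg. The step was tested on simulated data. Single values were compared by exact permutation. The members and lists, and the rule that named all members and the genes of each list past the threshold (or the 2 smallest p values), were chosen with earlier results of these data known. Of 108 genes on the pathway lists, 98 were measured. The number of arrays limits the precision.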

Additional observations from a re-analysis of the deposited data

How the results depend on the processing

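Of 151 values of single members under the alternatives, 145 kept their direction and 4 passed an unadjusted p of 0.05 that did not pass with all mice and the main settings. Alternatives that change only the variance, the rows tested or the replicate block leave a log2 fold change as it was. Part of the 145 thus kept their direction by construction. Directions turned for Fkbp4 (-0.0067 with quantile normalization, -0.010 with the array spread as a block, -0.025 to 0.043 without each mouse) and for Crhr1 (-0.042 to 0.024 without each mouse). The median of the members was -0.010 with a block for array spread and -0.021 to 0.043 without each mouse. The number of members higher was 1 to 2 and lower 0 to 1 without each mouse, and 0 were higher at a size of 0.5 or at an adjusted p of 0.05. Correlations of deviations between mice of the same replicate number were -0.048, 0.14 and 0.24, and those between other mice ran from -0.26 to 0.13. FSS mice 2 and 3 correlated best with the control of their own number, and FSS mouse 1 did not. With so few mice, these values cannot settle whether replicate numbers pair the mice. With the replicate number as a block 1 member was lower, Fkbp5, with an unchanged log2 fold change of -0.18. The array spread block and the alternatives for the Fkbp5 correlation (r from 0.92 to 0.96) were chosen after seeing the data. Without dim rows, Crh and Crhr2 were not tested.

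Among the lists, the number of lower glucocorticoid-induced genes was 1 with each gene's own variance (the methods' t-test), 3 with the array spread block, 2 to 6 without each mouse, 1 at a size of 0.5 and 0 at an adjusted p of 0.05. Of steroid enzymes and carriers, 2 were higher with a variance trend, 0 without dim rows and 0 at either stricter threshold, and 1 was lower with the replicate block (0 to 1 without each mouse). Of chaperones, 1 was higher with own variance, a variance trend, array weights or without dim rows (0 to 1 without each mouse). Of stress axis peptides and receptors, 1 was lower with array weights, quantile normalization, median centring or the replicate block, and 1 was higher with quantile normalization or either block (0 to 1 in each direction without each mouse). Of the coupling genes, 1 was lower with the array spread block. The causes were not tested.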
